A study of Mus musculus with 2 samples.

Results

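Interferon-induced antiviral genes of the Ifit family, together with Isg15, Rsad2 and Cmpk2, were followed cell by cell in the mouse uterus. Of 10 listed genes, 8 were measured among the 32285 genes of the count matrices, namely Ifit1, Ifit1bl1, Ifit2, Ifit3, Ifit3b, Isg15, Rsad2 and Cmpk2. Mx1 and Mx2 were not analysed here. The genes were selected on their measured levels in these same libraries, so their differences between libraries and cell classes are given as a description and support no test.

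The series holds 2 single-cell RNA libraries from whole uteri of mice aged 6 months. The control library came from mice with floxed Prickle1 alleles (Prickle1 f/f), and the conditional knockout (cKO) library from mice with those alleles plus Cre driven by Ltf (Ltf-cre), a gene transcribed in uterine epithelium and in neutrophils. Each library pooled 3 mice, and cells could not be assigned to single mice, so there was 1 sample per group and no test between groups. The groups come from the sample titles, since the genotype field describes both samples as wild type.

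The control library held 45035801 UMIs (unique molecular identifiers, each 1 captured transcript) and 3653 cells, against 57145553 UMIs and 4950 cells in the library labelled cKO. Median depth per cell was 4650 and 5944 UMIs, and 5 cell barcodes occurred in both libraries. Prickle1 did not check the labels: among cells with a UMI of Epcam it had 15 UMIs in control (0.865 CPM, the UMIs of a gene scaled to a common total of all UMIs of the class) and 16 in the library labelled cKO (3.93 CPM), a ratio of 4.54 (95% counting interval 2.10 to 9.86), so the level was not lower where the label says the gene was deleted. Cell-free barcodes had 1.55 and 5.69 CPM of Prickle1, above both class levels. Ltf itself had 1535 CPM in control epithelial cells and 107 CPM in those of the library labelled cKO, a ratio of 0.0697 (0.0633 to 0.0766). Whether the counted Prickle1 transcript end lies outside the deleted part is not given in the sources used here. Every direction below is therefore that of the library labelled cKO. All intervals cover counting error only, not the spread between mice, and those on UMIs also leave out the spread between cells.

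Type I and type III interferons are secreted proteins that act through surface receptors and intracellular kinases to switch on interferon-stimulated genes, many of which carry a shared response element in their promoters. The Ifit proteins bind viral RNA, Isg15 encodes a ubiquitin-like modifier, Rsad2 encodes viperin, which makes a chain-terminating nucleotide, and Cmpk2 encodes a mitochondrial nucleotide kinase whose gene neighbours Rsad2. In mucosal epithelium these genes are known as early markers of an interferon response.

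In the GRCm38 annotation the 5 Ifit members lay within 99.3 kb of chromosome 19, from 34550694 to 34650009, with Ifit1bl1 on the minus strand and the others on the plus strand. Rsad2 (chromosome 12, 26442746 to 26456452, minus strand) and Cmpk2 (26469204 to 26479837, plus strand) were separated by 12.8 kb on opposite strands. Isg15, on the minus strand, spanned 156199424 to 156200818 of chromosome 4. All 8 are annotated as protein coding.

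Because the members moved together, their RefSeq promoters (GRCm38.p6) were searched for the core of the interferon-stimulated response element, GAAANNGAAA, on both strands, with overlapping matches counted. All 8 genes matched the promoter table. The stretches with a match upstream of the start are printed on each gene's own strand, with the matching bases in capitals and, for Ifit1bl1, the first of its start sites with a match only. The capitals are alike because the search asked for those letters, and Ifit2 and Cmpk2 had no match to print.
Ifit1, chr19:34640770-34640828, plus strand: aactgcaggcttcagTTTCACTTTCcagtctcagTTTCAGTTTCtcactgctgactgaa
Ifit3, chr19:34583358-34583431, plus strand: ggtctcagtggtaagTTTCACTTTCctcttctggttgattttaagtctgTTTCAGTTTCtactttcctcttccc
Ifit3b, chr19:34607754-34607827, plus strand: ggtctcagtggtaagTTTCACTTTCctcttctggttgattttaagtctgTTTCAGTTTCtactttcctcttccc
Ifit1bl1, chr19:34602048-34602087, minus strand: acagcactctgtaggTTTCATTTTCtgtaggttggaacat
Isg15, chr4:156200860-156200911, minus strand: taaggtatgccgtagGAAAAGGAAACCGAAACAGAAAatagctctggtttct
Rsad2, chr12:26456548-26456587, minus strand: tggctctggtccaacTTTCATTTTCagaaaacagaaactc

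The printed stretches of Ifit3 and Ifit3b are identical, and the pair shared a run of 169 bases in the 250 bases before their starts. Isg15 carried 3 overlapping matches on the strand opposite to the orientation seen in the other members. A match occurred in 6 of the 8 genes (7 of 10 promoters, 70%), against 978 of 32851 promoters (2.98%) in the whole table and 7 of 45 promoters (15.6%) of a list of 48 interferon pathway genes. The windows of Ifit2 and Cmpk2 held no match, which says only that these letters are not in that window. Ifit3 and Ifit3b are near-identical copies, so how their reads were divided between them is uncertain.

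Cells were placed in 6 classes by a UMI of 1 gate gene and of no other gate: Epcam (epithelial), Pdgfra (stromal), Actg2 (muscle), C1qa (macrophage), Flt3 (dendritic), and Cd3e or Ncr1 (lymphoid). The classes held 961, 623, 289, 228, 42 and 155 control cells and 135, 1464, 535, 110, 134 and 427 cells of the library labelled cKO, in that order. The summed level of each class's own marker list was highest in that class in both libraries. Each list includes the gate gene of its class and cells with another gate were left out, so the gating partly fixed this. The dendritic list, which includes antigen-presentation genes, also reached 3304 and 4353 CPM in macrophages. Muscle cells carried 211 CPM of the 7-gene epithelial list in control and 20.7 CPM in the library labelled cKO. Their levels of the 6-gene lymphoid list were 53.2 and 257 CPM. The part of such cells in the muscle values was not tested. Epithelial cells of the library labelled cKO carried 3069 CPM of the 6-gene stromal list, against 270 CPM in control, and 315 against 20.3 CPM of the 3-gene mesothelial list; the part of these cells in the epithelial values was not tested.

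In control, macrophages had the highest summed member level, 10070 CPM, followed by dendritic cells with 5512 CPM and epithelial cells with 1885 CPM. Lymphoid cells had 813 CPM, stromal cells 487 CPM and muscle cells 446 CPM. In the library labelled cKO macrophages kept 3739 CPM and dendritic cells 261 CPM, while epithelial, lymphoid, muscle and stromal cells had 54.0, 45.7, 22.6 and 13.5 CPM. Macrophages were thus the highest class in both libraries, with dendritic cells next in both.

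**Figure D1:**
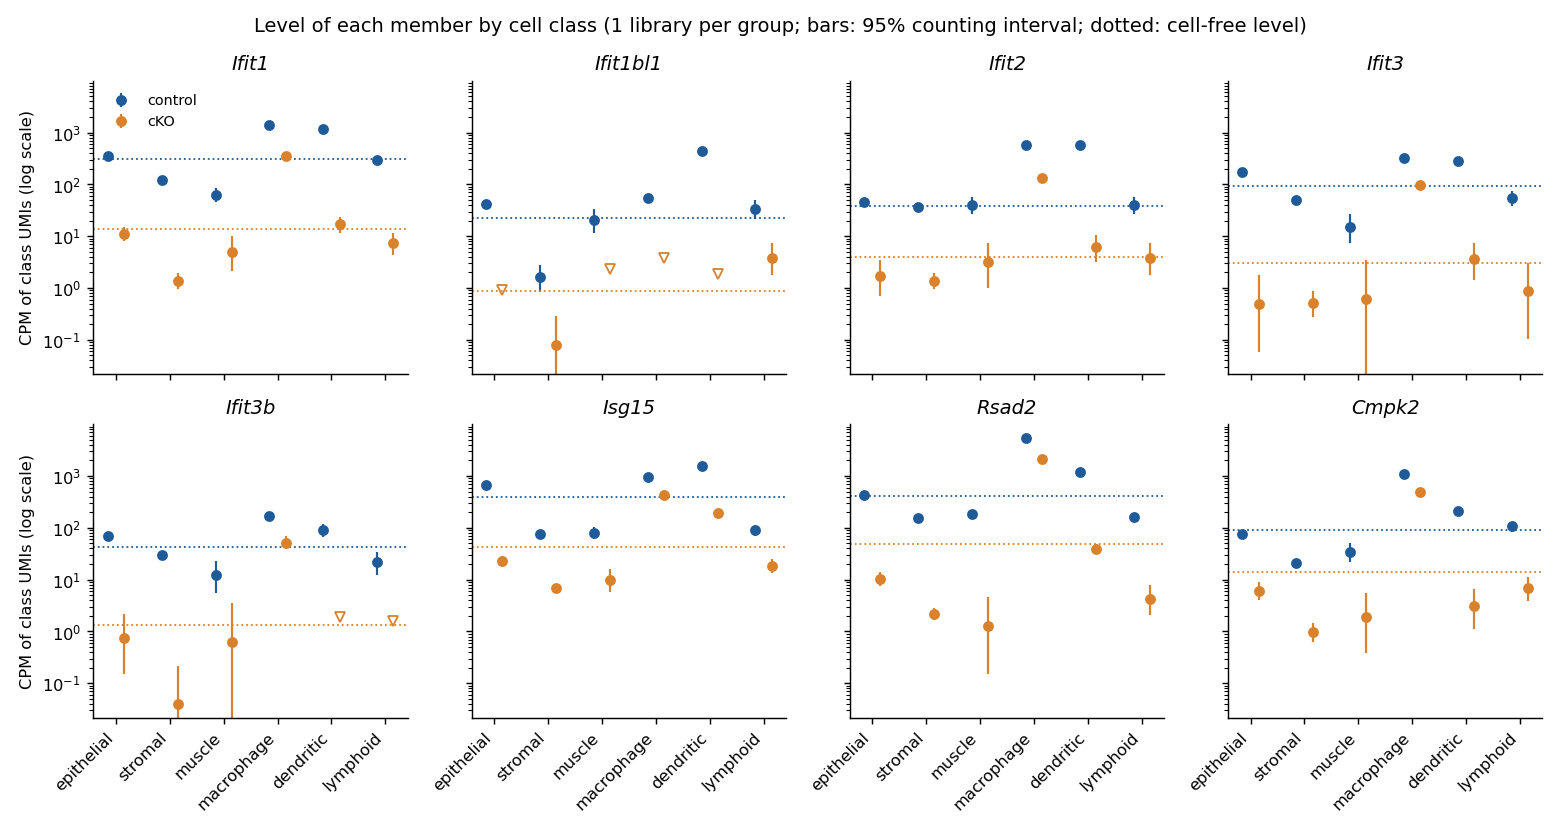
Level of each member (CPM, log axis) in the 6 classes of the control library and the library labelled cKO. Points are class sums with 95% counting intervals, open triangles are upper limits where a class had 0 UMIs, and dotted lines are the level in cell-free barcodes; Rsad2 reaches 5484 CPM in control macrophages and lies at 1.26 CPM in muscle cells of the library labelled cKO.

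Barcodes with 1 to 100 UMIs, which hold cell-free RNA, carried 1387 CPM of the members in control and 129 CPM in the library labelled cKO. In control the counting intervals of epithelial, macrophage and dendritic cells lay wholly above it for 7 members, and for Cmpk2 those of macrophages and dendritic cells did. In the library labelled cKO those of macrophages lay above it for every member but Ifit1bl1, dendritic cells for Isg15 and lymphoid cells for Ifit1bl1. A level under that of cell-free barcodes was not taken as background from this alone, because the share of cell-free RNA in each class could be bounded directly from abundant cell-free transcripts that the class hardly contains. Where every gene of that RNA enters cells alike, it could give stromal cells at most 4.87 of their 487 CPM in control, lymphoid cells 9.28 of 813 CPM, muscle cells 52.4 of 446 CPM and epithelial cells 33.9 of 1885 CPM. The muscle level was 96.9 CPM without its leading cell, so there the limit is a large part of the level in the remaining cells. In the library labelled cKO the most it could give epithelial cells was 0.672 of 54.0 CPM.

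In control, Isg15, the ubiquitin-like modifier gene, was highest in dendritic cells (1556 CPM, 1450 to 1668), then macrophages (953 CPM), epithelial cells (685 CPM), lymphoid cells (90.2 CPM), muscle cells (80.4 CPM) and stromal cells (74.9 CPM). The intervals of the last 3 overlapped between neighbours. In the library labelled cKO it was 434 CPM in macrophages, 192 CPM in dendritic cells, 23.3 CPM in epithelial cells, 18.5 CPM in lymphoid cells, 10.0 CPM in muscle cells and 6.93 CPM in stromal cells. Neighbours below dendritic cells overlapped.

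Rsad2, the viperin gene, reached 5484 CPM (5379 to 5591) in control macrophages and 1185 CPM in dendritic cells. It stood at 432 CPM in epithelial cells and between 154 and 181 CPM in stromal, lymphoid and muscle cells, whose neighbouring intervals overlapped. Of these UMIs 1 cell held 123 of 133 in muscle and 465 of 1241 in stromal cells. The library labelled cKO had 2163 CPM (2072 to 2257) in macrophages, 39.1 CPM in dendritic cells and 10.3 CPM in epithelial cells. Lymphoid, stromal and muscle cells had 4.31, 2.17 and 1.26 CPM. Every class was therefore lower in the library labelled cKO, and macrophages stood far above all others in both.

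Ifit1, whose product binds the 5′ end of foreign RNA, followed the order macrophage (1401 CPM), dendritic (1175 CPM), epithelial (362 CPM), lymphoid (303 CPM), stromal (119 CPM) and muscle (62.7 CPM) in control, with no overlap between neighbours. In the library labelled cKO it was 357 CPM in macrophages and 17.0 CPM in dendritic cells, 11.3 CPM in epithelial cells and between 1.38 and 7.33 CPM in lymphoid, muscle and stromal cells. Of the 46 epithelial UMIs of Ifit1 in the library labelled cKO, 34 came from 1 cell. Ifit2 was alike in control dendritic cells (575 CPM, 511 to 644) and macrophages (572 CPM, 539 to 607), and lay between 36.8 and 46.7 CPM in the other 4 classes. Of its control UMIs 1 cell held 26 of 29 in muscle and 117 of 297 in stromal cells. Ifit3 in control had 11 UMIs in muscle cells (7.48 to 26.8 CPM) and 322 CPM in macrophages, and Ifit3b had 12.3 and 173 CPM in the same classes.

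Ifit1bl1, an Ifit1-like gene of the same cluster, differed from this order. It had 442 CPM (386 to 503) in control dendritic cells against 54.6 CPM in macrophages, 42.5 CPM in epithelial cells and 1.61 CPM in stromal cells. In the library labelled cKO it had 0 UMIs in epithelial, muscle, macrophage and dendritic cells. Across the 12 class and library levels its log2(CPM + 1) had a Pearson r of 0.68 with that of the member sum, against 0.93 to 0.99 for the other 7 members; the sum includes each gene, and the classes of a library share its depth.

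The differences between libraries had 1 direction. All 48 pairs of a member and a class had a lower level in the library labelled cKO. Of these, 43 were tested (at least 20 UMIs over both libraries) and 42 were called lower, meaning a 95% counting interval wholly beyond 2-fold. In epithelial cells 8 of 8 members were called lower, where 4.44% of all 13163 tested genes were. The counts were 7 of 7 tested members in stromal cells (2.64% of all tested genes), 5 of 5 in muscle cells (0.667%), 7 of 8 in macrophages (1.02%), 8 of 8 in dendritic cells (2.33%) and 7 of 7 in lymphoid cells (0.933%). The members passed the 20 UMI minimum largely through the control library, and they were chosen on this contrast, so nothing is read from these counts against the shares. No member was called higher, where 17.2% of tested genes were in epithelial cells, 1.98% in stromal cells, 1.4% in muscle cells, 1.79% in macrophages, 1.85% in dendritic cells and 1.77% in lymphoid cells.

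In epithelial cells the median log2 ratio (library labelled cKO to control) of all 8 members, untested ones included, was -5.18, beside 0.47 over all tested genes. The medians were -5.43 beside -0.03 in stromal cells, -3.88 beside 0.11 in muscle cells, -1.73 beside 0.19 in macrophages, -6.14 beside 0.27 in dendritic cells and -4.55 beside 0.14 in lymphoid cells. With members at 0 UMIs set to a floor of 3 counts, the medians were -3.68 in muscle cells, -6.03 in dendritic cells and -3.99 in lymphoid cells, and the others did not move. As sums, the members were 34.9-fold lower in epithelial cells (30.6 to 40.0), 36.1-fold in stromal cells (32.4 to 40.5), 21.1-fold in dendritic cells (19.2 to 23.2), 19.7-fold in muscle cells (14.0 to 28.7) and 17.8-fold in lymphoid cells (14.5 to 22.1). In macrophages the sum was 2.69-fold lower (2.60 to 2.79). In muscle 1 control cell held 78.6% of the member UMIs, and without the leading cell of each library the fold there was 7.43 (4.47 to 12.9). The difference in fold between macrophages and the other classes was not tested across mice.

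**Figure D2:**
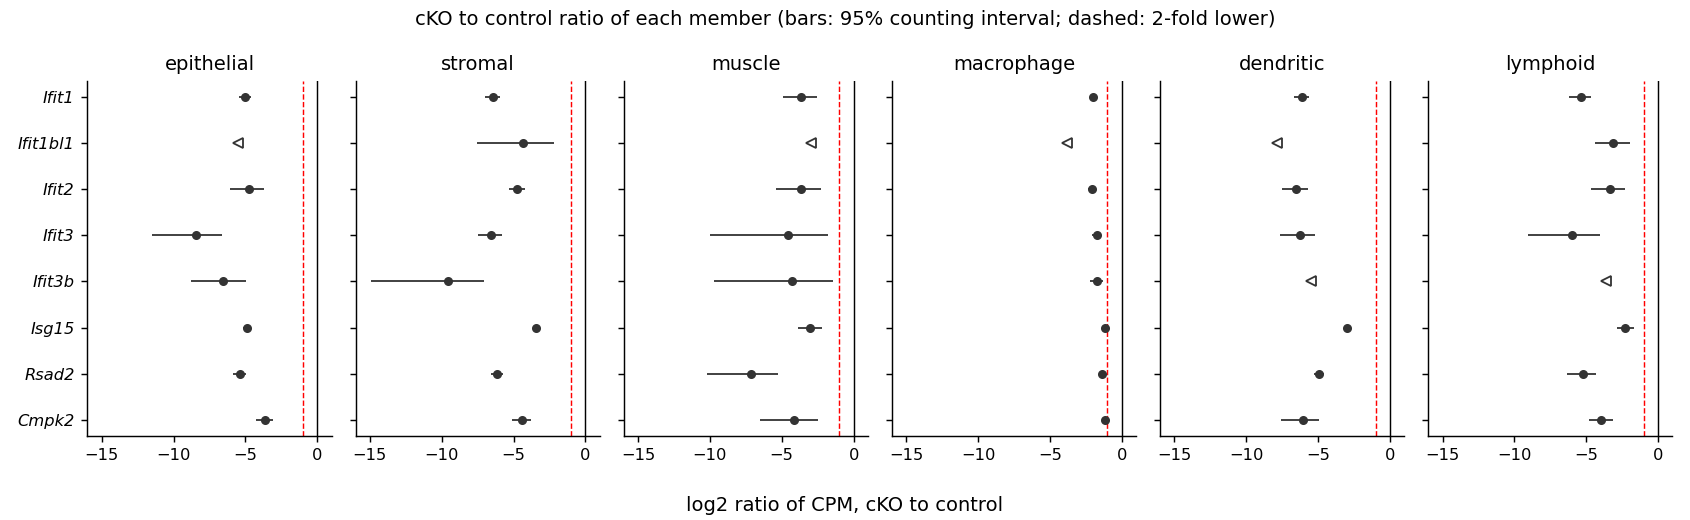
Log2 ratio of each member, library labelled cKO to control, in each class with its 95% counting interval. Open triangles are limits where the library labelled cKO had 0 UMIs and the dashed line marks 2-fold lower; in macrophages 7 of the 8 members lie between -1.13 and -2.07, and all other classes lie lower for those members.

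Members differed in how far they were lower. Ifit3 had 2998 UMIs in control epithelial cells (173 CPM) and 2 in the library labelled cKO (0.491 CPM), 352-fold lower (97.4 to 2910). In the same class Rsad2 was 41.9-fold lower (30.9 to 58.1), Ifit1 32.1-fold (24.0 to 43.8), Isg15 29.4-fold (24.0 to 36.3) and Cmpk2 12.4-fold (8.35 to 19.2). For Cmpk2, 18 of the 25 UMIs in the library labelled cKO came from 1 cell, and its log2 ratio of -3.60 was -5.20 without each gene's leading cell and -5.34 with the doublet filter. For Ifit1, which also had a leading cell, the log2 ratio of -4.99 was -6.77 without it. Ifit1bl1, with 737 UMIs in control and 0 in the library labelled cKO, was at least 57.7-fold lower against a floor of 3 counts per class. In dendritic cells it was at least 286-fold lower and Ifit3b at least 58.3-fold lower by the same floor.

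Isg15 was lowered least in 5 of 6 classes. In dendritic cells this held under every alternative run, while in the other 4 classes another member was lowered least under some. In muscle, without each gene's leading cell, Isg15 had a log2 ratio of -3.53 and Ifit2 -1.12. For Ifit2 that cell held 26 of the 29 control UMIs. Ifit1bl1 had 15 control UMIs, all in 1 cell, and 0 in the library labelled cKO. Without that cell it cannot be ranked. The fold of Isg15 was 10.8 in stromal cells (9.13 to 12.9), 8.09 in dendritic cells (7.14 to 9.17), 8.01 in muscle cells (4.55 to 14.9) and 4.87 in lymphoid cells (3.27 to 7.32). In macrophages it was 2.20-fold lower (1.98 to 2.45) and was the 1 tested member without a call, next to Cmpk2 with 2.21-fold (2.00 to 2.45). All 8 macrophage members were called with any gate, with a gate of at least 2 UMIs, with TMM scaling and without the leading cell. The make-up of the member UMIs differed between libraries. Isg15 gave 15.4% of them in control stromal cells and 51.5% in the library labelled cKO. In dendritic cells its share was 28.2% and 73.6%, and in lymphoid cells 11.1% and 40.6%. Macrophages had 9.46% and 11.6%.

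**Figure D3:**
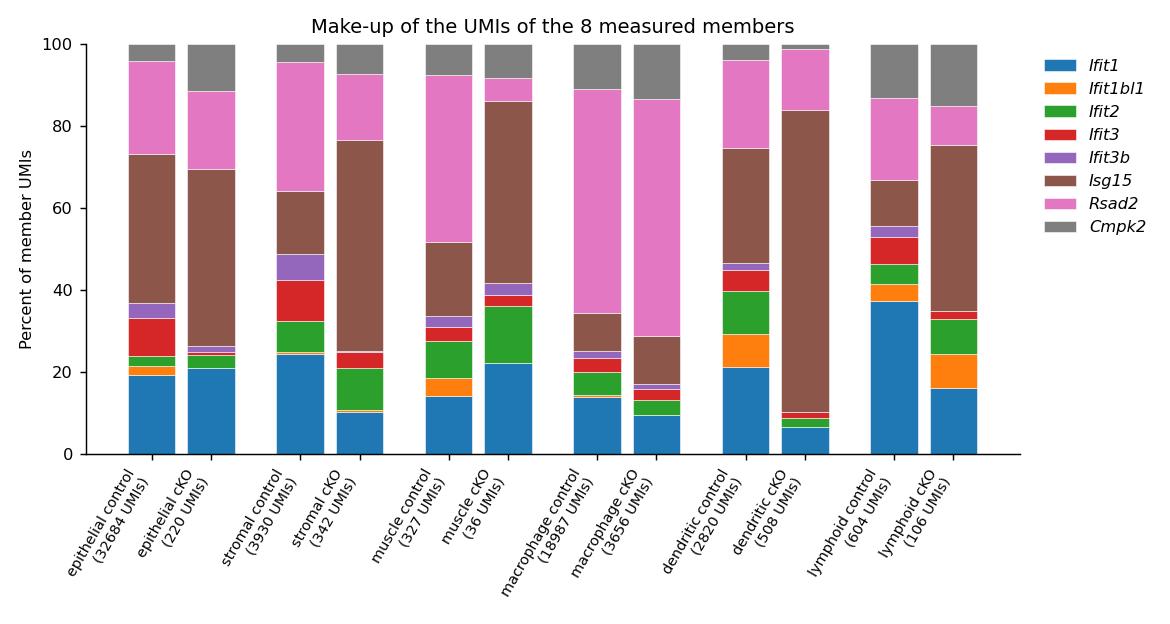
Share of each member in the member UMIs (percent) of each class and library, as stacked bars that add up to 100. Rsad2 fills 54.5% and 57.9% of the macrophage bars, and Isg15 fills 51.5% of the stromal bar and 73.6% of the dendritic bar of the library labelled cKO.

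Macrophages also differed from the epithelium in the balance of the genes. There were 5.75 UMIs of Rsad2 per UMI of Isg15 in control macrophages (5.47 to 6.05) and 4.99 in those of the library labelled cKO (4.49 to 5.55). Control epithelial cells had 0.630 (0.612 to 0.649) and control dendritic cells 0.761 (0.684 to 0.847). Cmpk2 per Isg15 was 1.16 in control macrophages, 1.16 in those of the library labelled cKO and 0.111 in control epithelial cells. Control lymphoid cells had 1.18 UMIs of Cmpk2 per UMI of Isg15 (0.841 to 1.66), close to macrophages. Rsad2 per Isg15 in control was 1.82 in lymphoid, 2.05 in stromal and 2.25 in muscle cells, between epithelium and macrophages. In muscle 1 cell held 123 of the 133 Rsad2 UMIs and 25 of the 59 Isg15 UMIs, so the place of muscle rests on that cell.

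The members were spread unevenly over the cells of the control classes and over macrophages of the library labelled cKO. Before thinning, the per-cell member level in control epithelium had a median of 358 CPM, a 90th percentile of 6422 CPM and a highest cell of 37184 CPM. Control macrophages had a median of 567 CPM and a highest cell of 132310 CPM. Macrophages of the library labelled cKO had a median of 86.3 CPM and a highest cell of 52200 CPM. In control stromal, muscle and lymphoid cells the median was 0, yet the highest cells reached 46225, 21962 and 20708 CPM. The top cells of every control class thus lay far above its median.

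To compare shares of cells, each cell was thinned to 1000 UMIs and shallower cells were left out, 7 in control epithelium, 49 in control muscle, 94 in muscle of the library labelled cKO and 11 or fewer elsewhere. At least 3 of the 8 members were detected in 142 of 954 control epithelial cells (14.9%, exact binomial interval 12.7 to 17.3) and in 0 of 135 epithelial cells of the library labelled cKO, which allows up to 2.22% by a limit of 3 counts (exact upper bound 2.70%). Without thinning the shares were 38.9% and 5.93%. Control macrophages had 30.2% (24.3 to 36.7) and those of the library labelled cKO 12.8% (7.20 to 20.6). Control dendritic cells had 33.3% (19.6 to 49.5) of 42 cells, and 2 of 134 cells in the library labelled cKO did (1.49%).

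Control lymphoid, stromal and muscle cells had shares of 7.84%, 2.28% and 1.25%, and in the library labelled cKO these 3 classes had 0 such cells. No class is known to lack these genes; the muscle class, the lowest, had any member in 4.58% of 240 control cells at a median depth of 1504 UMIs before thinning, against 41.2% of control epithelial cells at 6302 UMIs. No member was detected in 58.8% of control epithelial cells, 47.1% of control macrophages and 42.9% of control dendritic cells. Without thinning, 71.3%, 72.4% and 81.0% of these cells had a member, against 41.2%, 52.9% and 57.1% after it. The share of macrophages with no member was 71.6% in the library labelled cKO.

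**Figure D4:**
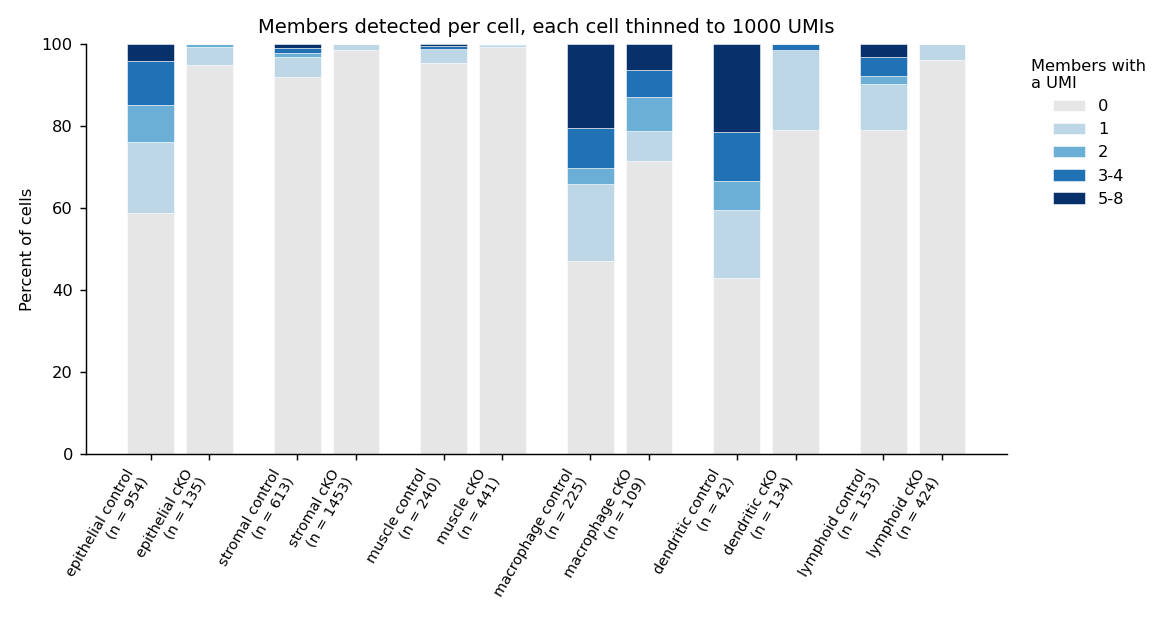
Share of cells (percent) by the number of the 8 members detected per cell after thinning to 1000 UMIs, for each class and library. In control macrophages 20.4% of cells had 5 or more members and 47.1% had none, and in control epithelium 4.09% had 5 or more.

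A few cells held most of the member UMIs. After thinning, the 96 control epithelial cells with the highest counts, the top 10%, held 62.6% of the member UMIs, and the top 10% of macrophages held 56.2% in control and 84.5% in the library labelled cKO. The variance of the member count over its mean (the Fano factor, 1 for Poisson counting) was 37.7 in control macrophages and 27.5 in those of the library labelled cKO. It was 9.42 in control epithelium, and in epithelium of the library labelled cKO no thinned cell had over 2 member UMIs. Control stromal cells had 17.2. In stromal cells of the library labelled cKO no thinned cell had over 1 member UMI.

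In muscle 1 control cell held 78.6% of the 327 member UMIs. Without it the control level was 96.9 CPM in place of 446 CPM. Leaving out each gene's leading cell moved the count of muscle members called lower from 5 of 5 to 1 of 1 tested, the others being under the 20 UMI minimum. In control stromal cells 1 cell held 21.7% of the 3930 member UMIs, and without it the level was 382 CPM. Among macrophages of the library labelled cKO 1 cell held 24.7%, and without it the level was 2877 CPM in place of 3739 CPM.

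In the control classes and in macrophages of the library labelled cKO the members were often detected in the same cells. In control muscle only 11 thinned cells had any member. Of the 165 control epithelial cells with an Rsad2 UMI after thinning, 85.5% had another member, against 28.9% of cells without one. For Isg15, found in 277 cells, the shares were 65.0% and 17.1%. Of the 17 control dendritic cells with an Rsad2 UMI 94.1% had another member, against 28.0% of those without. For the 13 such control lymphoid cells the shares were 84.6% and 13.6%. Over control epithelial cells the 28 pairs of members had a median Pearson r of 0.33 on log-transformed counts, and over control macrophages 0.56, with 0.86 for Rsad2 and Cmpk2. Macrophages of the library labelled cKO had a median of 0.50 over 21 pairs. Control stromal cells had a median of 0.50 over 28 pairs, in which the 7 pairs with Ifit1bl1, found in 1 thinned cell, had r just under 0. Of the stromal cells with an Ifit1 UMI 69.6% had another member, against 4.58% of those without. None of the 13 stromal and 7 lymphoid cells with an Isg15 UMI in the library labelled cKO had another member. These are correlations over cells of 1 library that share its depth, given as a description.

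The wider pathway was described through a list of 48 genes by role. In epithelial cells 43 of them were tested, 22 were called lower and 1 higher (4.44% and 17.2% of all tested genes), with a median log2 ratio of -1.47 beside 0.47 over all tested genes. Among ligands, Ifnb1 (interferon beta) had 889 UMIs in control and 0 in the library labelled cKO, and Ifnl3 (interferon lambda) had 53 and 0. Ifne, the epithelial interferon epsilon of the female tract, had 5.82 and 6.63 CPM with no call. Of 4 receptors only Ifnlr1, the chain specific to interferon lambda, was called, 3.91-fold lower (2.13 to 7.97).

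Among epithelial signalling genes Irf7, a factor that amplifies interferon production, was 13.4-fold lower (9.35 to 19.9) and Stat2 was 6.97-fold lower (5.41 to 9.13). Among sensors of viral nucleic acid 4 of 8 were called lower, including Ifih1 (MDA5) by 20.5-fold (14.1 to 31.2) and Zbp1 by 11.6-fold. Cgas, the cytosolic DNA sensor, was the 1 gene called higher, from 1.90 to 17.9 CPM. It had 26.8 CPM in stromal, 33.9 CPM in muscle and 20.3 CPM in lymphoid cells of the library labelled cKO, and in the epithelial class the muscle list stood at 32.1 and 454 CPM and the lymphoid list at 12.8 and 265 CPM; the part of such cells was not tested. Usp18, a brake on receptor signalling, was 13.2-fold lower. Of 16 tested effectors 10 were called lower, such as Oas2 by 26.2-fold and Oasl1 by 22.0-fold, while Bst2 (1.65-fold) and Ifitm3 (1.53-fold) had no call.

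Outside the epithelium the list was called lower for 18 of 37 tested genes in stromal cells (2.64% of all tested genes), 21 of 36 in dendritic cells (2.33%), 12 of 34 in lymphoid cells (0.933%) and 4 of 28 in muscle cells (0.667%). In dendritic cells 14 of 16 tested effectors were called lower, and Irf7 was 17.5-fold lower (12.2 to 25.9). The dendritic class held 0 CPM of the 6-gene lymphoid list in control and 369 CPM in the library labelled cKO, and 95.8 and 284 CPM of the stromal list; the part of such cells was not tested. In lymphoid cells Ifitm3 was called higher, from 6.73 to 62.9 CPM. In that class the 6-gene dendritic list stood at 67.3 and 381 CPM and the stromal list at 57.9 and 261 CPM, and Ifitm3 had 410 CPM in dendritic and 343 CPM in stromal cells of the library labelled cKO; the part of such cells was not tested. In macrophages 1 of 38 was called, beside 1.02% of all tested genes. It was Usp18, 2.91-fold lower (2.13 to 4.06), and the median log2 ratio of the list was -0.45. Ifih1 there had 186 CPM in control and 197 CPM in the library labelled cKO, and Oasl2 266 and 219 CPM. Others without a call were lower by about as much as Isg15, such as Oasl1, from 1059 to 491 CPM (2.16-fold, 1.95 to 2.39), and Ddx58, 2.11-fold (1.49 to 3.05).

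**Figure D5:**
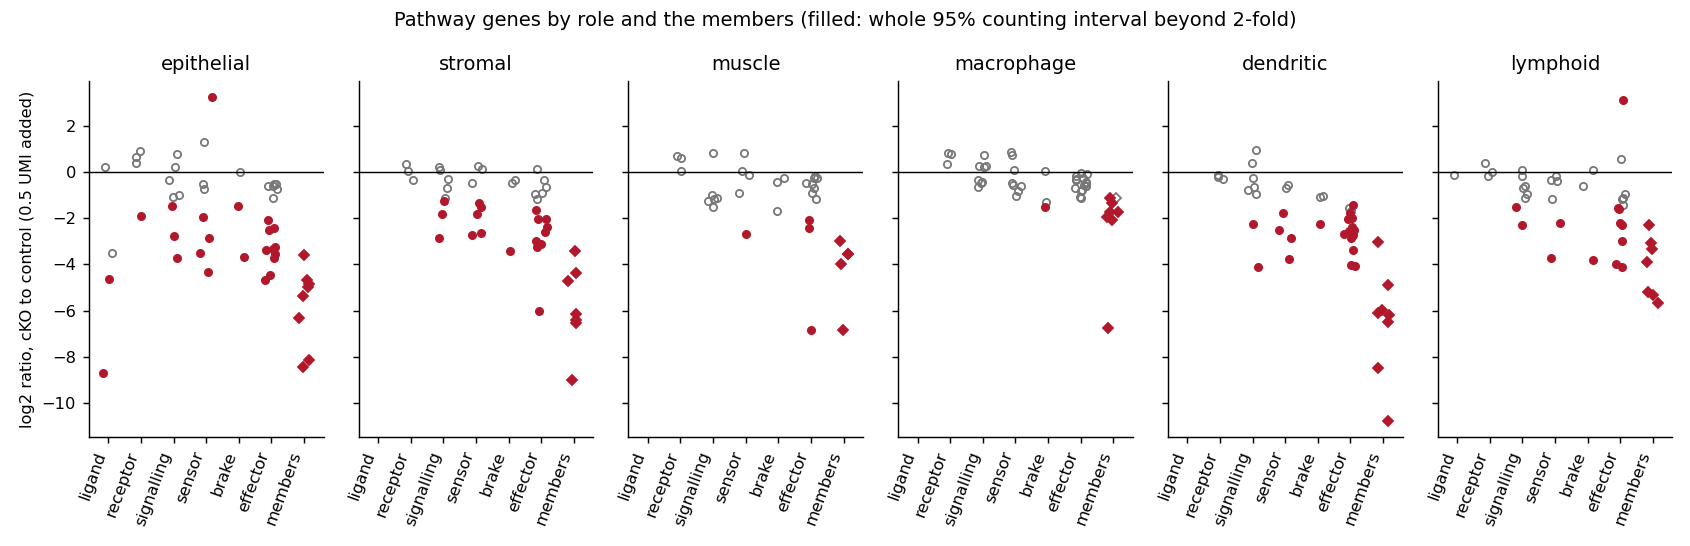
Log2 ratio, library labelled cKO to control, of the tested pathway genes by role in each class, with the members as diamonds. Filled symbols are called; in macrophages Usp18 is the 1 filled pathway gene, and epithelial Ifnlr1 at -1.91 is the 1 receptor called in any class.

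Control epithelial cells with an Ifnb1 UMI overlapped those rich in members. The 79 such cells had 6069 CPM of the members, and the other 882 cells had 1105 CPM. These 79 cells held 50.6% of the member UMIs of the class. Their median depth was 17602 UMIs against 5771 in the rest, and the part of depth in finding an Ifnb1 UMI was not tested.

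Genes with the pattern most like the member sum were ranked by Pearson r of log2(CPM + 1) over the 12 class and library levels, among 11509 genes. The highest 6 other than the members were Rnf213 (0.97), Rtp4 (0.96), Oasl2 (0.96), Oas1a (0.95), Ifih1 (0.95) and Irf7 (0.94). The points share libraries and depth, so these values carry no test. Rnf213, a large ubiquitin ligase gene, had 432 CPM in control macrophages and 342 CPM in those of the library labelled cKO, and its epithelial levels were 272 and 41.7 CPM.

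Cells outside the 6 classes followed the same direction. The 1185 control cells with no gate UMI had 1991 CPM of the members, against 62.9 CPM in the 1896 such cells of the library labelled cKO. Cells with several gates had 2050 and 353 CPM.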

How the data were processed

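Raw gene counts (UMIs per gene and barcode) were deposited by the authors as unfiltered matrices. The submitters' processing notes name Cell Ranger 6.1.1 and the build mm10, and the file headers name Cell Ranger 4; the filters used upstream are not given in the sources used here. Cells had at least 500 genes and at most 20% mitochondrial UMIs. Doublets were treated only through the exclusive gate, and a scanpy 1.11.5 doublet score above 0.25 marked 42 control cells and 60 of the other library, left out in an alternative. UMIs were summed per class. Ratios had exact conditional binomial intervals and levels exact Poisson intervals at 95%. Log2 ratios carry a pseudocount of 0.5 UMI. Thinning drew 1000 UMIs per cell. TMM factors came from edgeR 4.0.16. Alternatives changed the gate, cell filters, depth, scaling, doublets, leading cells, cell-free RNA and low-count filter. The call rule was tested on simulated Poisson counts. These lack the spread over cells described above, so they do not show how the rule behaves on these data. Named genes were all members, the 48-gene pathway list and the 6 most alike genes. Values of 1 listed pathway gene are not reported here. The members and lists were chosen with earlier results of these data known.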

Additional observations from a re-analysis of the deposited data

How the results depend on the processing

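With 1 library per group, the intervals cover counting error only and replicates could not be left out. No paired analysis was possible because each group had 1 library. All 48 log2 ratios of a member in a class stayed below 0 under each of the 11 alternatives that can move them. Of these 528 values, 442 lay within the main counting interval, 86 moved outside it and 0 reversed. Ifit1bl1 in muscle had 0 UMIs in both libraries after thinning, and again without its leading cell. Its values there, -0.88 and -1.12, come from the class totals alone and could not reverse, so they show no direction. TMM scaling shifted all epithelial log2 ratios by -0.45 and those of other classes by -0.28 to 0.03. The count of muscle members called lower, 5 as reported, was 8 with any gate, 8 with no filter on low counts, 0 of 0 tested after thinning to 1000 UMIs and 1 of 1 tested without the leading cell. Thinning, which leaves fewer UMIs, gave 3 of 7 tested in place of 7 of 8 in macrophages, 4 of 4 in place of 8 of 8 in dendritic cells, 4 of 4 in place of 7 of 7 in lymphoid cells, 5 of 5 in stromal and 6 of 8 in epithelial cells. After it the log2 ratio in macrophages was -2.14 for Ifit1, -1.72 for Rsad2 and -0.39 for Ifit3b, which was -1.72 before. The macrophage count was 6 with at least 1000 genes and with cell-free RNA subtracted. Leaving out the leading cell of each library, chosen after seeing the data, moved the fold of the member sum from 34.9 to 48.4 in epithelial cells, from 36.1 to 30.6 in stromal cells, from 19.7 to 7.43 in muscle cells and from 2.69 to 3.33 in macrophages. The share of control epithelial cells with at least 3 members, 14.9%, was 20.9% when thinned to 2000 UMIs and 38.9% without thinning. The share of member UMIs in the top 10% of these cells, 62.6%, was 77.4% without thinning and 60.3% with a gate of at least 2 UMIs. The cause of the last shift was not tested. Whether gated cells are deeper than ungated cells of the same type was not tested.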
